A study of Mus musculus with 8 samples.

Results

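Expression of 40 mouse genes, listed for building, sulfating or trimming glycosaminoglycan chains, was examined in cultured tail tendon fibroblasts. The cells kept or had lost Scx, the gene of the transcription factor scleraxis. The genes were taken by symbol from the table of counts, in 7 steps of the pathway. All 40 were among the 24982 genes of the table, and all 40 were among the 13125 genes that passed the filter on low counts. The Scx-positive group (genotype Scx+ in the labels) had 4 libraries, numbered 2, 3, 5 and 6, and the Scx-deleted group (genotype Scx-) had 4 libraries, numbered 2, 3, 4 and 5. Both groups were cells of the C57Bl/6 strain, and both had received 4-hydroxytamoxifen (4HT), so that treatment does not separate them. The deleted part of Scx, the driver of the recombinase, the age of the mice and the number of animals or cultures behind the libraries were not given in the sources used here. The spread that p-values are set against is therefore that of these 8 libraries and may be of technical origin. The comparison is of mRNA levels after loss of Scx.

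Glycosaminoglycans are long sugar chains that are built on the serines of proteoglycan core proteins. A short linker that starts with xylose is made first, and it is then extended either as chondroitin sulfate or as heparan sulfate. In dermatan sulfate, the form carried by decorin and biglycan in tendon, part of the glucuronic acid of a chondroitin chain has been turned into iduronic acid by epimerases. Sulfotransferases then place sulfate at set positions, with the activated sulfate donor PAPS as their substrate, and extracellular sulfatases can remove sulfate from finished heparan sulfate. The pattern of sulfate influences which growth factors and other proteins a chain can bind.

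The libraries held 17343228 to 25180790 gene counts. Levels are given as CPM, the count of a gene per unit of library size after scaling with TMM factors. Scx stood at 6.82 to 10.1 CPM in the Scx-positive libraries and at 0.0468 to 0.152 CPM in the Scx-deleted ones, a log2 change of -6.08 ± 0.27 (SE), so the labels and the gene's own counts go together. Scx-positive replicate 5 stood apart from its group on the second principal component, which held 12.9% of the variance. The tendon genes Tnmd, Mkx, Col1a1, Col1a2, Thbs4 and Fmod were all detected and 5 of the 6 were lower in Scx-deleted cells, with a summed level of 7686 to 9800 CPM in Scx-positive and 5769 to 6446 CPM in Scx-deleted libraries. Among markers of other cells, 2 of 6 macrophage and leukocyte genes (Cd68 and Csf1r) were higher in Scx-deleted cells, with sums of 19.9 to 22.7 and 23.0 to 26.6 CPM, while Ptprc stood at 0.0351 and 0.0642 CPM and Adgre1 at 0.0216 and 0 CPM. Of 5 endothelial genes 1 was lower (Tek) and 1 higher (Kdr), with sums of 68.1 to 86.1 and 48.7 to 53.7 CPM, and Pecam1 stood at 0.302 and 0.112 CPM. The mural list had 1 of 4 lower (Rgs5), with sums of 42.4 to 71.4 and 37.2 to 53.5 CPM, skeletal muscle 1 of 5 lower (Acta1), with sums of 34.8 to 40.9 and 27.1 to 36.2 CPM and Myod1 at 0, and cartilage 1 of 5 higher (Sox9), with sums of 18.004 to 21.3 and 20.2 to 23.3 CPM. Of 4 keratinocyte genes only 1 was tested, and it was not called, with sums of 2.53 to 3.80 and 3.24 to 4.14 CPM. Of the lists before it, 4 of 6 macrophage and leukocyte and 3 of 5 endothelial genes were tested. So were 3 of 4 mural, 2 of 5 skeletal muscle and 3 of 5 cartilage genes. The rest were under the filter on low counts and could not be called. Of all genes tested, 14.5% were lower and 14.0% higher. Single genes made up most of several of these sums, so the sums do not give levels of a cell type. Myh11, not called, had means of 53.8 and 42.5 CPM in Scx-positive and Scx-deleted libraries. Rgs5 had 1.29 and 0.668 CPM. Tek had 74.3 and 46.6 CPM, Sox9 17.97 and 21.1 CPM, and Cd14, not called, 14.3 and 15.1 CPM. The part of these cell markers in the results on glycosaminoglycan genes was not tested.

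More of the 40 genes fell than rose. Of the 13 falls 9 lay in chondroitin and dermatan sulfate synthesis and in the supply of active sulfate. Those steps hold 6, 9 and 4 of the 40 genes, so their size adds to that count. Chst12 and Chst14, among these falls, lost their calls when single libraries were left out. In Scx-deleted cells 13 of the 40 were lower and 5 higher by the quasi-likelihood test of edgeR, at an adjusted p under 0.05 (Benjamini-Hochberg over all genes). These 18 called genes can be set against 28.5% of all genes tested. Lower genes made up 32.5% of the 40 against 14.5% of all genes tested, and higher genes 12.5% against 14.0%. The 40 genes were chosen with earlier results of these data known. An excess over all genes, here or by step, is therefore not independent of these data. The median log2 change was -0.05 over the 40 genes and -0.01 over all genes tested, and 22 of the 40 did not pass. By step the median ran from -0.18 in sulfate and precursor supply to 0.12 in the linker. The largest changes were falls. 4 genes, Arsi, Dsel, Hs3st1 and Hs6st2, fell by at least 1.5-fold, and 0 rose by that much. With the same minimum, 3.09% of all genes tested were called lower and 2.18% higher. The Scx-deleted libraries all lay below the Scx-positive ones for 14 of the 40 genes, where 14.3% of all genes tested did so, and all lay above for 6, where 14.8% did (29.1% for either direction). In bulk RNA, fewer cells of a kind and less RNA per cell cannot be told apart. With an offset for GC content and exon length 15 of the 40 were lower and 11 higher, where 16.5% and 21.5% of all genes were. The genes it added were Ext2 and Sulf2 as lower and B3gat3, Csgalnact2, Ndst2, Glce, Ugdh and Arsb as higher, with log2 changes from -0.09 (Ext2) to 0.21 (B3gat3). Without Scx-positive replicate 5 there were 13 lower and 8 higher, where 17.5% and 18.3% of all genes were.

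**Figure D1:**
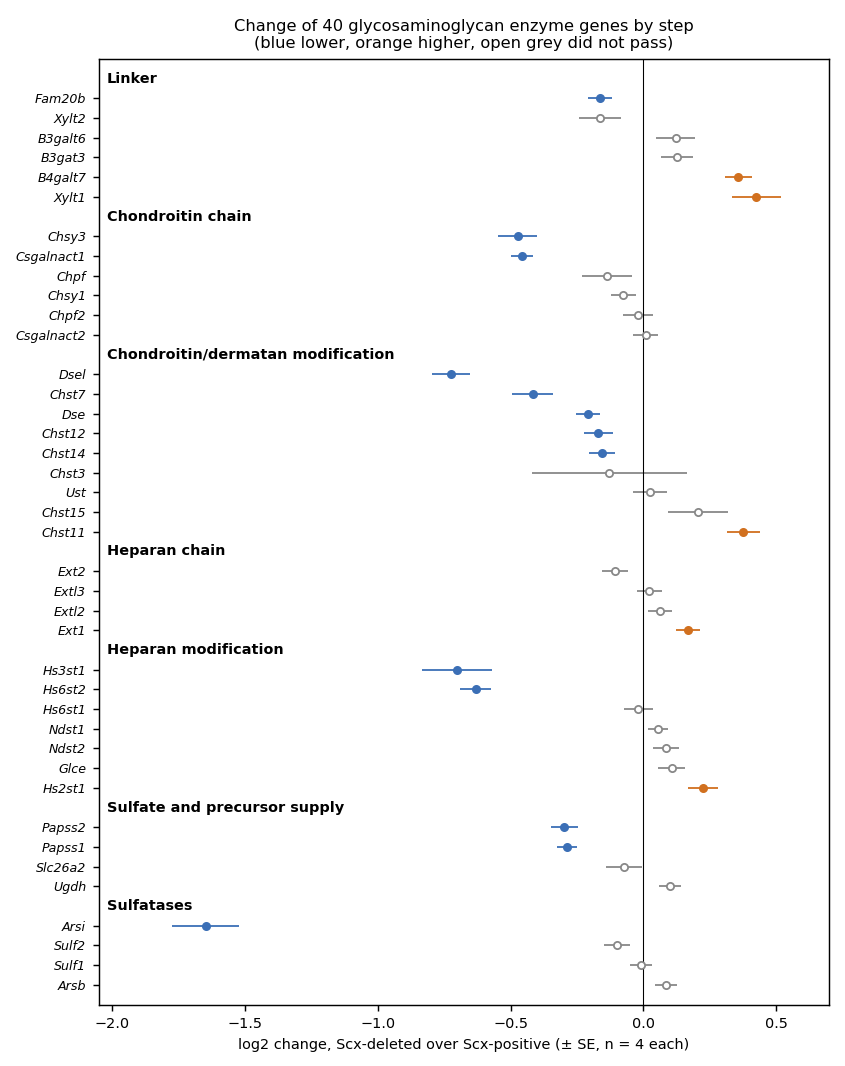
Log2 change of each of the 40 genes in Scx-deleted over Scx-positive cells (horizontal axis, points with SE bars, n = 4 libraries per group), grouped by step of the pathway. Filled blue points were lower (13 genes), filled orange points higher (5 genes) and open grey points did not pass the test (22 genes), with Arsi farthest to the left at -1.65.

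CPM is used here as a measure of the counts behind a gene, not to compare genes. The 7 genes above 200 CPM in Scx-positive cells were Chpf, Ext1, Ext2, Ndst1, Ugdh, Sulf1 and Sulf2. Their log2 changes ran from -0.14 to 0.17, and only Ext1 among them was called. Among the 18 genes between 50 and 200 CPM, 8 fell and 2 rose, and among the 11 between 10 and 50 CPM, 4 fell and 1 rose. Of the 4 genes under 10 CPM, Xylt1 rose, Hs3st1 fell, and Chst3 and Chst15 did not pass. Of all genes tested, at any level, 14.5% fell and 14.0% rose. Shares of all genes within each class of level were not worked out, so no pattern by level is drawn from these counts.

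Scleraxis is a basic helix-loop-helix factor, a class that binds E-boxes, so the promoters of members that moved are shown with the letters CANNTG in capitals. RefSeq starts on GRCm38.p6 were matched for 31 of the 40 genes, with 39 starts in all, and the 250 bases before each start were searched. The 5 genes printed were picked among those with a match and are the epimerase with the larger fall, the pair of sulfate donor synthases that fell, and a galactosyltransferase and a 4-O-sulfotransferase that rose. Sequences run 5′ to 3′ along the strand of the gene.
Dsel (fell, chr1:111864919-111865168, minus strand): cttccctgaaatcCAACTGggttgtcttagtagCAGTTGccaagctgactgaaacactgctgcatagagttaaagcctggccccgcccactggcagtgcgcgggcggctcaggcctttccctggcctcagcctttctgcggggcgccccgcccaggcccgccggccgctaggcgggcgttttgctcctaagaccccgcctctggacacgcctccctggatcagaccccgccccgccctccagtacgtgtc
Papss1 (fell, chr3:131564518-131564767, plus strand): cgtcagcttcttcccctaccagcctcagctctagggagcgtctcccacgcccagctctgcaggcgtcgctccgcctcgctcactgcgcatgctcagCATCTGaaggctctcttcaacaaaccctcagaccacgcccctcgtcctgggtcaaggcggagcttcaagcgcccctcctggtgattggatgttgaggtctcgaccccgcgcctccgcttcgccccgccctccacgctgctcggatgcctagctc
Papss2 (fell, chr19:32595465-32595714, plus strand): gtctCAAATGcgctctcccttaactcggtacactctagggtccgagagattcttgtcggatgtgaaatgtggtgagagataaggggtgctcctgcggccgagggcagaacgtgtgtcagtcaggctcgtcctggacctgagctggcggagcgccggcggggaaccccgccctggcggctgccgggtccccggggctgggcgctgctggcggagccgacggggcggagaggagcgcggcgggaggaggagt
B4galt7 (rose, chr13:55599646-55599895, plus strand): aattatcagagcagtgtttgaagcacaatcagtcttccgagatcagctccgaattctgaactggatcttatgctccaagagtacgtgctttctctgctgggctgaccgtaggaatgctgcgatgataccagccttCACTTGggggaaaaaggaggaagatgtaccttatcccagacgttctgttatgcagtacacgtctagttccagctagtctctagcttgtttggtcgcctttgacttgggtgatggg
Chst11 (rose, chr10:82985247-82985496, plus strand): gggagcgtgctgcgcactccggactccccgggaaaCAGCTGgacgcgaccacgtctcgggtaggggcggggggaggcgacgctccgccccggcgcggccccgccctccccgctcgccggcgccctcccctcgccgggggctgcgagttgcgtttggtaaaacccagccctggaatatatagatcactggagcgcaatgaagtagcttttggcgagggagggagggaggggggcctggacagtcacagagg

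Matches to CANNTG occurred in falling and rising members alike. The Dsel window held CAACTG starting 237 bases and CAGTTG 217 bases before the start, Papss1 held CATCTG at 154 and Papss2 CAAATG at 246. Another Papss1 start, not shown, had CAGGTG at 121, and another Papss2 start had no match. Among the risers, B4galt7 held CACTTG at 115 and Chst11 CAGCTG at 215. Windows of Dse, Fam20b, Hs3st1, Hs6st2 and Hs2st1, which were also called, held no match. By call, 7 of 13 windows of lower genes, 2 of 3 of higher genes and 10 of 23 of genes that did not pass held one. Papss1, Papss2 and Hs6st2 gave 2 windows each. The called genes Arsi, Csgalnact1, Chsy3, Xylt1 and Ext1 had no matched start and were not searched. Over all 39 starts 19 windows (48.7%) held CANNTG, against 57.1% of the 13158 windows of genes tested and 66.2% of all 32851 windows in the table. The letters CATCTG or their reverse complement CAGATG, which are a subset of CANNTG, were in 4 of the 39 windows (10.3%) and in 9.86% of windows of genes tested. These matches describe letters and not binding.

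Linker genes moved in both directions. The linker of xylose, 2 galactoses and glucuronic acid is shared by chondroitin and heparan sulfate. Of its 6 genes 2 rose (33.3%, against 14.0% of all genes tested), 1 fell (16.7%, against 14.5%) and 3 did not pass. Xylt1, which encodes a xylosyltransferase that starts the chain, stood at 6.37, 6.96, 7.41 and 6.95 CPM in Scx-positive replicates 2, 3, 5 and 6 and at 8.10, 9.87, 9.87 and 9.36 CPM in Scx-deleted replicates 2, 3, 4 and 5. Every Scx-deleted library was above every Scx-positive one, with a log2 change of 0.42 ± 0.09 (SE) (edgeR adjusted p = 0.00273). The galactosyltransferase gene B4galt7, the first to extend xylose, was at 54.9, 53.5, 58.5 and 59.8 CPM with Scx and at 71.3, 69.4, 77.3 and 72.9 CPM without it, in the same order of libraries. Its groups did not overlap either, and it rose by 0.36 ± 0.05 (SE) on the log2 scale (edgeR adjusted p = 7.47e-05).

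Fam20b, the kinase that phosphorylates the xylose, went the other way by a smaller amount. It was at 112, 111, 108 and 118 CPM in Scx-positive and 100.2, 102, 94.0 and 105 CPM in Scx-deleted libraries, a log2 change of -0.16 ± 0.05 (SE) (edgeR adjusted p = 0.0137). The groups did not overlap, but the call was lost without Scx-positive replicate 6 (edgeR adjusted p = 0.0507) and without Scx-deleted replicate 4 (edgeR adjusted p = 0.056). The second xylosyltransferase gene Xylt2 was at 31.5 ± 4.01 and 28.2 ± 1.59 CPM (SD, n = 4 each), the second galactosyltransferase gene B3galt6 at 11.2 ± 0.460 and 12.2 ± 0.620 CPM and the glucuronosyltransferase gene B3gat3 at 39.4 ± 3.47 and 43.0 ± 1.42 CPM, in Scx-positive and Scx-deleted cells. None of these 3 passed the test, with log2 changes of -0.16, 0.12 and 0.13. B3gat3 was called higher without Scx-positive replicate 5 (edgeR adjusted p = 0.00226), the library in which it was highest of its group at 44.5 CPM. An antisense gene shares 3.80% of the exon bases of B4galt7, and a gene model on the opposite strand 4.56% of those of Fam20b, whose reads could not be set apart if strand was not used.

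Of the 6 genes that build the chondroitin backbone 2 fell (33.3%, against 14.5% of all genes tested) and 4 did not pass. Csgalnact1, which adds the first N-acetylgalactosamine and so commits a linker to chondroitin, was at 139, 144, 143 and 136 CPM in Scx-positive libraries. In Scx-deleted libraries it was at 106, 102, 103 and 98.2 CPM. The gap between the groups was wider than the range within either, and the log2 change was -0.46 ± 0.04 (SE) (edgeR adjusted p = 8.63e-07). Csgalnact1 (ENSMUSG00000036356.15) lies on the minus strand of chromosome 8 between 68356781 and 68735146 of GRCm38. Its paralog Csgalnact2, which did not pass, was at 73.6 ± 3.93 and 73.9 ± 2.25 CPM (SD, n = 4 each), with a log2 difference of 0.01 ± 0.05 (SE). With the offset for GC content and length it was called higher, at 0.15 (edgeR adjusted p = 0.00204).

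Chsy3, a chondroitin synthase gene of low level, fell as well. It was at 15.8, 14.6, 16.5 and 14.9 CPM with Scx and 11.8, 10.99, 11.2 and 10.7 CPM without it, with no overlap and a log2 change of -0.47 ± 0.07 (SE) (edgeR adjusted p = 1.64e-04). The more abundant synthase gene Chsy1 was at 52.9 ± 0.941 and 50.2 ± 2.19 CPM (SD, n = 4 each). All 4 of its Scx-deleted libraries were below the Scx-positive ones, yet the log2 difference of -0.08 ± 0.05 (SE) did not pass (edgeR adjusted p = 0.248). The polymerizing factor genes Chpf and Chpf2 were at 229.6 ± 43.0 and 209 ± 13.1 and 175 ± 17.1 and 173 ± 4.90 CPM (SD, n = 4 each), with log2 differences of -0.14 and -0.02. In Scx-positive replicate 5 Chpf was at 291.9 CPM, while the other 3 libraries of the group ranged from 193.4 to 218.2 CPM. On the opposite strand, exons of Smarcd3 cover 44.1% of the exon bases of Chpf2, so its counts are uncertain.

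Genes that modify chondroitin and dermatan chains, the step with the most genes, held the most falls, 5 of 9, with 1 rise. These were 55.6% and 11.1% of the step, against 14.5% and 14.0% of all genes tested. Dermatan sulfate epimerase genes both fell. Dsel was at 53.2, 44.9, 45.2 and 49.2 CPM in Scx-positive and at 28.2, 31.5, 25.7 and 30.9 CPM in Scx-deleted libraries, so its highest Scx-deleted value was well below its lowest Scx-positive one. The log2 change was -0.72 ± 0.07 (SE) (edgeR adjusted p = 2.14e-06). Dse, the other epimerase gene, was at 119, 125, 110.2 and 117 CPM with Scx and at 103, 103, 104 and 97.3 CPM without it, a smaller change of -0.21 ± 0.05 (SE) (edgeR adjusted p = 0.00281) with no overlap. Dsel (ENSMUSG00000038702.6) spans 111858702 to 111864918 on the minus strand of chromosome 1, and Dse (ENSMUSG00000039497.8) spans 34151393 to 34207715 on the minus strand of chromosome 10.

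The sulfotransferase genes of these chains moved in both directions. Chst11, which encodes a chondroitin 4-O-sulfotransferase, was at 29.4, 29.2, 27.5 and 32.9 CPM in Scx-positive and 38.9, 36.6, 41.2 and 37.8 CPM in Scx-deleted libraries, and rose by 0.38 ± 0.06 (SE) on the log2 scale (edgeR adjusted p = 2.94e-04). Chst7, which encodes a chondroitin 6-O-sulfotransferase, was at 20.8, 20.6, 25.4 and 23.6 CPM with Scx and 17.9, 16.1, 16.5 and 17.3 CPM without it, a log2 change of -0.42 ± 0.08 (SE) (edgeR adjusted p = 7.65e-04). In both genes the groups did not overlap, in opposite directions.

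Chst12, a second chondroitin 4-O-sulfotransferase gene and the most abundant per length of this step, fell by a small amount. Its values were 104, 102, 119 and 107 CPM in Scx-positive and 103, 92.3, 94.0 and 94.7 CPM in Scx-deleted libraries. Scx-deleted replicate 2 reached into the Scx-positive range, and the log2 change was -0.17 ± 0.05 (SE) (edgeR adjusted p = 0.0259). Chst14, the dermatan 4-O-sulfotransferase gene that acts after the epimerases, was at 67.2, 67.6, 75.6 and 67.6 CPM with Scx and 64.5, 60.9, 61.5 and 62.7 CPM without it, a log2 change of -0.16 ± 0.05 (SE) (edgeR adjusted p = 0.0246). Both calls were lost without Scx-deleted replicate 3, 4 or 5, each of which left the step with 3 falls, and that of Chst12 also without Scx-positive replicate 6. Their adjusted p-values in those edgeR fits ran from 0.0511 to 0.0802 for Chst12 and from 0.0643 to 0.0727 for Chst14.

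3 genes of this step did not pass. Ust, the uronyl 2-O-sulfotransferase gene, was at 20.8 ± 1.06 and 21.3 ± 0.797 CPM, and Chst15, which adds a further sulfate to 4-O-sulfated chondroitin, at 5.18 ± 0.759 and 6.01 ± 0.357 CPM (SD, n = 4 each). Chst15 was called higher without Scx-positive replicate 5, with a log2 change of 0.32 (edgeR adjusted p = 0.0231), and 17.9% of its exon bases are shared with an antisense gene. Chst3, the other 6-O-sulfotransferase gene, was at 1.06 ± 0.173 and 0.997 ± 0.520 CPM. Its SE of 0.29 on the log2 scale was the widest of the 40 genes, so a change of the size seen in Chst7 was not detectable at this depth.

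**Figure D2:**
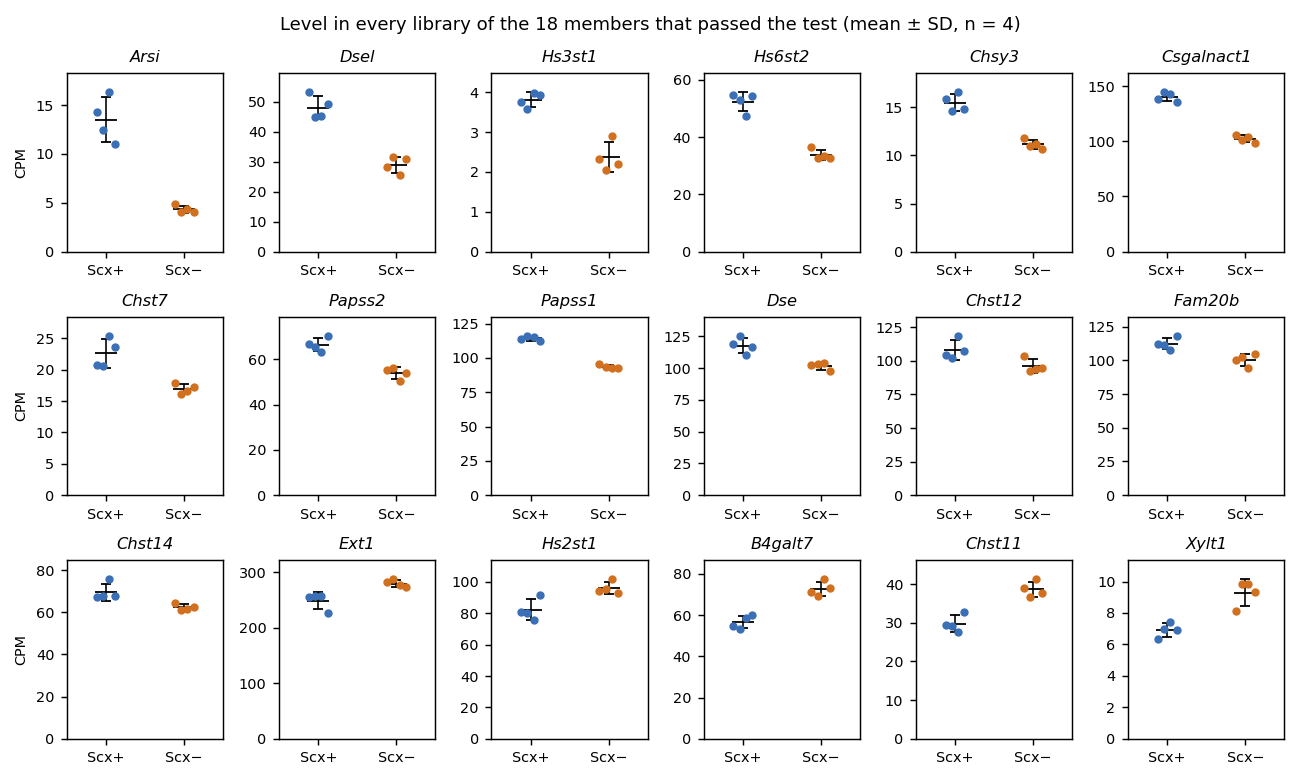
CPM in each library (points) with mean ± SD (bars, n = 4) for the 18 genes that passed the test, ordered from the largest fall (Arsi) to the largest rise (Xylt1). Vertical axes start at 0, and the 2 groups overlap in Chst12 only.

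Heparan sulfate chain genes differed by small amounts. Of 4 genes 1 rose (25%, against 14.0% of all genes tested) and 3 did not pass. Ext1 encodes a subunit of the heparan polymerase and was at 255, 258, 257 and 226 CPM in Scx-positive and 281, 287, 276 and 273 CPM in Scx-deleted libraries. It rose by 0.17 ± 0.05 (SE) on the log2 scale (edgeR adjusted p = 0.0114), with Scx-positive replicate 6 as the lowest library. With only the libraries numbered 2, 3 and 5 of each group, Ext1 was at 0.13 and the call was lost (edgeR adjusted p = 0.0526). Its partner Ext2 was at 243 ± 17.9 and 226 ± 3.88 CPM (SD, n = 4 each), and all its Scx-deleted libraries were below the Scx-positive ones, but the log2 difference of -0.11 ± 0.05 (SE) did not pass (edgeR adjusted p = 0.115). Extl2 and Extl3, which act at the start of the chain, were at 51.6 ± 1.27 and 53.9 ± 1.40 and 142 ± 8.25 and 145 ± 4.88 CPM, with log2 differences of 0.06 and 0.02.

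Heparan sulfate modification showed 2 large falls in genes of low or middle level, 1 small rise and 4 genes that did not pass. The falls were 28.6% and the rise 14.3% of its genes, against 14.5% and 14.0% of all genes tested. Hs6st2, a heparan 6-O-sulfotransferase gene, was at 54.6, 52.8, 47.4 and 54.3 CPM in Scx-positive and 36.4, 32.6, 33.4 and 32.7 CPM in Scx-deleted libraries. The nearest libraries of the groups were at 47.4 and 36.4 CPM, and the log2 change was -0.63 ± 0.06 (SE) (edgeR adjusted p = 1.22e-06). Its paralog Hs6st1 was at 79.1 ± 4.63 and 78.2 ± 5.03 CPM (SD, n = 4 each), with a log2 difference of -0.02 ± 0.05 (SE). Hs6st2 (ENSMUSG00000062184.11) lies on the minus strand of chromosome X between 51387212 and 51681856.

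Hs3st1, which encodes the 3-O-sulfotransferase that makes the antithrombin-binding site of heparan sulfate, was among the rarest members. It was at 3.77, 3.59, 3.98 and 3.93 CPM with Scx and at 2.33, 2.06, 2.90 and 2.20 CPM without it, which came from 44 to 99 counts per library. The groups did not overlap, with a log2 change of -0.70 ± 0.13 (SE) (edgeR adjusted p = 8.92e-04). Hs2st1, the uronyl 2-O-sulfotransferase gene of heparan sulfate, was at 81.0, 80.2, 75.9 and 91.8 CPM in Scx-positive and 94.3, 95.6, 102 and 92.8 CPM in Scx-deleted libraries. It rose by 0.22 ± 0.06 (SE) on the log2 scale (edgeR adjusted p = 0.00662), although Scx-positive replicate 6 was close to the lowest Scx-deleted library.

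Genes of the earlier modification steps did not pass. Ndst1 and Ndst2, which replace acetyl by sulfate on glucosamine, were at 348 ± 11.9 and 362 ± 2.56 and 43.3 ± 1.85 and 46.0 ± 0.775 CPM, and the heparan epimerase gene Glce at 97.2 ± 4.41 and 105 ± 6.71 CPM (SD, n = 4 each). Their log2 differences were 0.05 ± 0.04 (SE), 0.09 ± 0.05 (SE) and 0.11 ± 0.05 (SE). The range of 2 SE either side reached 0.13 for Ndst1, 0.18 for Ndst2 and 0.21 for Glce.

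Both PAPS synthase genes fell, 2 of the 4 supply genes (50%, against 14.5% of all genes tested). PAPS synthases make the sulfate donor of every sulfotransferase in the list. Papss1 was at 114, 116, 115 and 112 CPM in Scx-positive and 95.4, 93.6, 92.3 and 93.0 CPM in Scx-deleted libraries. The log2 change was -0.29 ± 0.04 (SE) (edgeR adjusted p = 3.78e-05). Papss2 was at 66.6, 65.6, 63.2 and 70.4 CPM with Scx and 55.4, 56.4, 50.4 and 53.8 CPM without it, a log2 change of -0.30 ± 0.05 (SE) (edgeR adjusted p = 3.45e-04). Neither gene overlapped between the groups. Papss1 (ENSMUSG00000028032.13) lies on the plus strand of chromosome 3 from 131564768 to 131643671, and Papss2 (ENSMUSG00000024899.7) on the plus strand of chromosome 19 from 32595790 to 32667187.

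The other supply genes did not pass the test. The sulfate transporter gene Slc26a2 was at 31.0 ± 1.502 and 29.5 ± 2.59 CPM (SD, n = 4 each), with a log2 difference of -0.07 ± 0.07 (SE). Ugdh, which makes the glucuronic acid donor for all chains, was at 397 ± 14.7 and 426 ± 12.9 CPM. All of its Scx-deleted libraries were above the Scx-positive ones, but the log2 difference of 0.10 ± 0.04 (SE) did not pass (edgeR adjusted p = 0.0792).

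Arsi had the largest change of the 40 genes, and the other 3 sulfatase genes did not pass. Arsi encodes a member of the arylsulfatase family, and no action of it on glycosaminoglycan chains was shown here. Its Scx-positive libraries held 14.3, 12.5, 16.3 and 11.01 CPM and its Scx-deleted libraries 4.86, 4.07, 4.35 and 4.05 CPM, so even the nearest libraries, at 11.01 and 4.86 CPM, were far apart. The log2 change of -1.65 ± 0.13 (SE) (edgeR adjusted p = 2.04e-07) corresponds to a level 3.13-fold lower in Scx-deleted cells. Arsb, the lysosomal sulfatase of dermatan and chondroitin 4-sulfate, was at 118 ± 3.98 and 125 ± 3.01 CPM (SD, n = 4 each), with a log2 difference of 0.09 ± 0.04 (SE). It was called higher without Scx-positive replicate 5 (edgeR adjusted p = 0.0251), and 32.3% of its exon bases are shared with a noncoding gene on the opposite strand.

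The extracellular heparan 6-O-endosulfatase genes were among the highest per length and did not pass. Sulf1 was at 712, 721, 707 and 739 CPM in Scx-positive and 733, 740.2, 711 and 675 CPM in Scx-deleted libraries, with interleaved values and a log2 difference of -0.01 ± 0.04 (SE). Sulf2 was at 380.2, 361, 422 and 373 CPM with Scx and 376, 348, 354 and 356 CPM without it, and its log2 difference of -0.10 ± 0.05 (SE) also did not pass (edgeR adjusted p = 0.145).

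Levels can be compared between genes only per length, so CPM was divided by the exon length of each gene in GENCODE release 21 on GRCm38. On this scale Sulf2, Sulf1, Chpf and Ugdh stood highest in Scx-positive cells, at 65.4 ± 4.54, 63.7 ± 1.27, 59.5 ± 11.1 and 58.8 ± 2.17 CPM per kb (SD, n = 4), and neighbours in this order of 4 do not differ beyond their spread. Chst12 at 45.7 ± 3.13 and Ndst1 at 42.0 ± 1.44 CPM per kb came next. Within the linker the order was B4galt7, B3gat3, Fam20b, Xylt2, B3galt6 and Xylt1, from 19.6 ± 1.04 down to 0.717 ± 0.0442 CPM per kb, and Xylt2 exceeded Xylt1 in both groups. Among the chondroitin backbone genes Csgalnact1 was above Csgalnact2, at 27.6 ± 0.738 and 13.5 ± 0.723 CPM per kb with Scx and at 20.1 ± 0.634 and 13.6 ± 0.415 without it. Dse was above Dsel, at 23.6 ± 1.247 and 8.35 ± 0.682 CPM per kb with Scx. The lowest member was Chst3 at 0.163 ± 0.0266 CPM per kb. The annotation behind the counts was not given in the sources used here, so these lengths may differ from the ones counted.

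**Figure D3:**
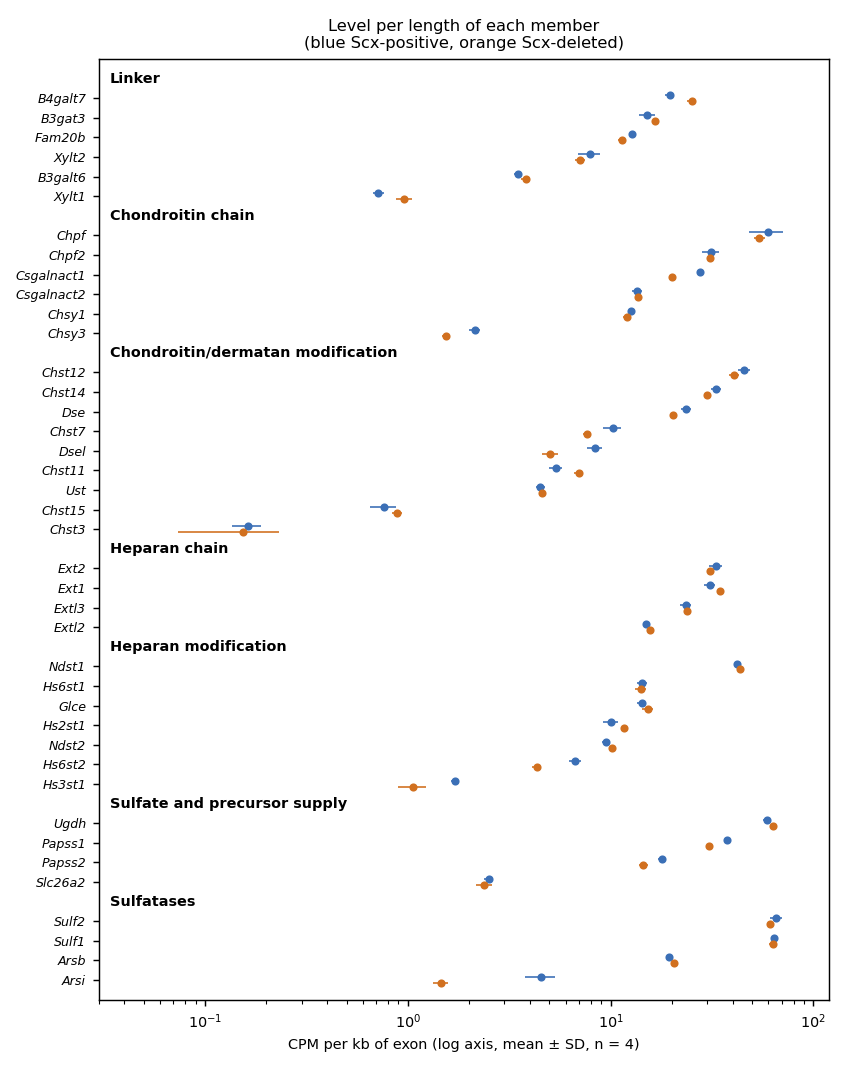
CPM per kb of exon of each gene on a log axis, as mean ± SD over 4 Scx-positive (blue) and 4 Scx-deleted (orange) libraries, grouped by step. Levels within a step differ widely, from Chst3 at 0.163 to Chst12 at 45.7 CPM per kb in the chondroitin and dermatan modification step.

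Ratios of 2 enzymes within a library need no scaling between libraries. They are described here without a test, as ratios of counts not divided by length. Every pair that did not overlap between the groups holds a gene already called, so these ratios are not separate from the calls. How many pairs of other genes would separate in this way was not worked out. Of single genes tested, 29.1% did not overlap between the groups. For the xylosyltransferases, Xylt1 over Xylt2 was 0.206, 0.239, 0.198 and 0.243 with Scx and 0.268, 0.370, 0.362 and 0.327 without it. Csgalnact1 over Csgalnact2 was 1.81, 1.93, 2.10 and 1.80 with Scx and 1.49, 1.33, 1.38 and 1.34 without it. The first ratio was higher and the second lower in every Scx-deleted library.

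For the epimerases, Dse over Dsel was 2.23, 2.79, 2.44 and 2.37 with Scx and 3.63, 3.28, 4.05 and 3.15 without it. Hs6st1 over Hs6st2 was 1.495, 1.38, 1.76 and 1.45 with Scx and 2.27, 2.28, 2.47 and 2.25 without it. Ext1 over Ext2 was 1.08, 1.11, 0.950 and 0.961 with Scx and 1.23, 1.30, 1.22 and 1.20 without it, and this pair also did not overlap between the groups. Arsi over Arsb went from 0.115 ± 0.0157 to 0.0347 ± 0.00319 (SD, n = 4 each), again with no overlap.

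The other 6 pairs overlapped between the groups. Papss2 over Papss1 was 0.586, 0.565, 0.549 and 0.627 with Scx and 0.581, 0.603, 0.546 and 0.579 without it. Sulf1 over Sulf2 was 1.88 ± 0.150 and 1.996 ± 0.0992, Ndst1 over Ndst2 8.04 ± 0.218 and 7.86 ± 0.163, Chpf over Chpf2 1.30 ± 0.113 and 1.21 ± 0.0479 and Chst15 over Chst11 0.176 ± 0.0355 and 0.156 ± 0.00580 in Scx-positive and Scx-deleted libraries (SD, n = 4 each). Chst3 over Chst11 was 0.0360 ± 0.00752 and 0.0254 ± 0.0118, with overlap between the groups.

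**Figure D4:**
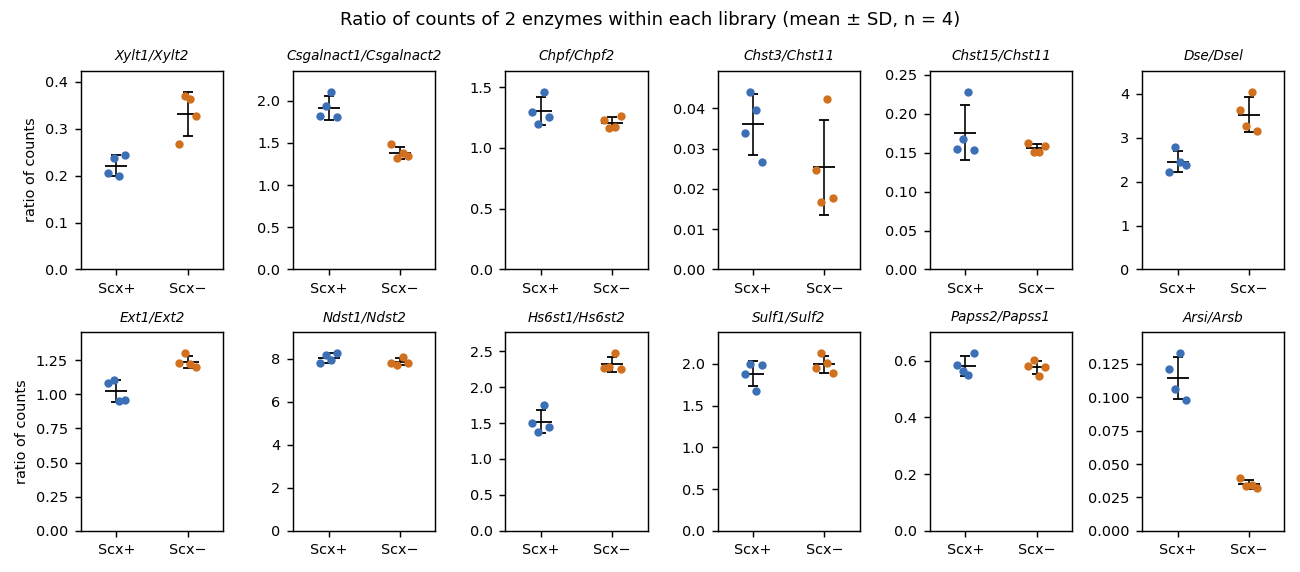
Ratio of the counts of 2 enzymes in each library (points) with mean ± SD (bars, n = 4), for 12 pairs of related genes. Xylt1/Xylt2, Dse/Dsel, Ext1/Ext2 and Hs6st1/Hs6st2 were higher and Csgalnact1/Csgalnact2 and Arsi/Arsb lower in every Scx-deleted library, and the other 6 pairs overlapped. Each pair that did not overlap holds a called gene.

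The rest of the pathway was read from 4 further lists, also chosen with earlier results of these data known. Of 16 tested genes of other glycosaminoglycan enzymes, transporters and keratan sulfate synthesis 3 fell and 3 rose, or 18.8% each way, near the 14.5% and 14.0% of all genes tested. Chst2, a sulfotransferase gene that acts on N-acetylglucosamine, went from 30.9 ± 4.06 to 18.6 ± 0.810 CPM (SD, n = 4 each). Its log2 change was -0.74 ± 0.08 (SE) (edgeR adjusted p = 8.50e-06). Pxylp1, the phosphatase that removes the phosphate placed by Fam20b, rose by 0.32 ± 0.06 (SE) on the log2 scale (edgeR adjusted p = 5.44e-04). Another 10 present genes of this list, among them Hs3st2, Hs6st3 and Ndst4, were under the filter on low counts.

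Genes of the lysosomal breakdown list rose more often than they fell. The list also holds the sulfatase-modifying factor genes Sumf1, which was among the rises, and Sumf2, and relatives of the arylsulfatases. Of 19 tested, 7 rose and 1 fell, or 36.8% and 5.26% against 14.0% and 14.5% of all genes tested. The gene that fell was Arsj, an arylsulfatase relative of Arsi, with a log2 change of -0.70 ± 0.07 (SE) (edgeR adjusted p = 2.20e-06).

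Of the genes of core proteins that carry the chains, 12 of 22 tested did not pass, Bgn (biglycan) among them. Of 9 tested chondroitin and dermatan sulfate core protein genes 4 fell and 1 rose, or 44.4% and 11.1% against 14.5% and 14.0% of all genes tested. Col14a1, a collagen that can carry chondroitin sulfate, changed by -1.25 ± 0.10 (SE) (edgeR adjusted p = 4.01e-07), and Dcn, the gene of decorin, by -1.01 ± 0.09 (SE) (edgeR adjusted p = 1.34e-06). Of 13 tested heparan sulfate core protein genes 4 fell and 1 rose, or 30.8% and 7.69%. The smallest p-values among the falls were those of the glypican genes Gpc6 at -0.41 ± 0.04 (SE) (edgeR adjusted p = 2.65e-06) and Gpc4 at -0.28 ± 0.04 (SE) (edgeR adjusted p = 5.85e-05). Gpc3, outside the rule for named genes and chosen after its values were seen, fell further, at -0.57 ± 0.13 (SE) (edgeR adjusted p = 0.00459). Over the 4 lists 12 of 57 tested genes fell and 12 rose. The chondroitin and dermatan list had a median log2 change of -0.23, the heparan list of -0.11 and the lysosomal list of 0.11.

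The authors' deposited table listed all 40 genes, and the counts behind it were not described in the sources used here. The authors' deposited table had 15 of the 40 below 0 and 9 above 0 at an adjusted p under 0.05, against 14.1% and 15.1% of its 14511 genes. All 18 genes called here had the same sign and an adjusted p under 0.05 in the authors' deposited table, where Arsi was at -1.67, Dsel at -0.58 and Xylt1 at 0.44 (log2). The direction of the authors' comparison was not stated and was read from its signs against these counts. The shared sign was therefore partly set by that reading. The same libraries may stand behind both tables, so this is not a replication.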

How the data were processed

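RNA of 8 libraries was sequenced, and the authors deposited whole-number counts per gene symbol, with no normalization. Per the submitters' processing notes STAR, DESeq2, FastQC and the mouse build mm10 were used; the counter, annotation and use of strand were not given in the sources used here. Rows that name no gene were left out (7.44% to 8.67% of counts in no feature, 0.490% to 0.567% ambiguous). From the authors' deposited comparison table, the log2 fold change and adjusted p-value were read. Its direction was not stated and was read from its signs against the counts. With that reading, 91.8% of the 13110 genes in both tables had the same sign in it as here.

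With edgeR 4.0.16 in R 4.3.3, genes passing filterByExpr (minimum count 10, total 15) were scaled by TMM and fitted with group alone, giving Scx-deleted over Scx-positive log2 changes. The quasi-likelihood p-values were adjusted by Benjamini-Hochberg over all genes tested. A standard error is the log2 change over the square root of F, and the common biological coefficient of variation was 5.50%. Exon lengths came from GENCODE mouse release 21 (98.0% of symbols matched).

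The members and lists were chosen with earlier results of these data known. By rule, every member was accounted for, called members with each library, and of each further list the 2 called genes with the smallest p were named, except 1 that is not reported here. Alternatives covered scaling (RLE, upper quartile), low-count filters (none, or at least 5 CPM in 4 libraries), other tools (DESeq2 1.42.0, voom of limma 3.58.1), GC content and length, a replicate block, a 1.5-fold minimum and libraries left out. In counts simulated for 13061 genes, 67 were changed by 1.25-fold, 66 by 1.5-fold and 65 by 2-fold. Recovery was 71.6% for 1.25-fold, 87.9% for 1.5-fold and 96.9% for 2-fold changes, with 5.59% of calls false. In the measured libraries 28.5% of all genes tested were called, and the share recovered or false there was not tested. Libraries of a group differed by more than sampling noise (chi-square per degree of freedom 2.42 to 13.3), so none was counted as a duplicate.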

Additional observations from a re-analysis of the deposited data

Results flagged for a closer look

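In 3 genes 1 Scx-positive library lay far from the other 3 by Dixon's test at 95%, out of 82 groups of 4 libraries tested, and chance alone marks about 1 in 20 groups. Chst14 reached 75.6 CPM in replicate 5 of the Scx-positive cells, while the others had 67.2 to 67.6 CPM. Ext2 reached 270.1 CPM in that same library, the others having 232.8 to 235.5 CPM. Ext1 was lowest in Scx-positive replicate 6, with 226.4 CPM where the others had 254.6 to 257.7 CPM. Without that library Ext1 had a log2 change of 0.13 (edgeR adjusted p = 0.0303), and without Scx-positive replicate 5 Chst14 had one of -0.11 (edgeR adjusted p = 0.0416), both still under 0.05. Both calls were lost under other settings.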

How the results depend on the processing

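RLE scaling, upper-quartile scaling, no filter, DESeq2 and voom each called the same 13 lower and 5 higher members, and the 5 CPM filter the same less Hs3st1, which it does not test. Of the 18 called members 14 kept their call under each setting that tests them, apart from the 1.5-fold minimum. The exceptions were Fam20b, Chst12, Chst14 and Ext1. Leaving out 1 library gave 10 to 13 lower and 5 to 8 higher members, and in the further lists 9 to 15 lower and 10 to 17 higher genes. In the same fits 10.8% to 17.5% of all genes tested were lower and 10.96% to 18.3% higher. Without both Scx-positive replicate 5 and Scx-deleted replicate 4, a choice made after seeing the data, 11 members were lower and 6 higher. Of all genes tested 15.5% and 16.1% were. The GC content and length offset gave 15 lower and 11 higher members. The 1.5-fold minimum left 4 lower and 0 higher members, 5 lower and 0 higher genes of the further lists, and 405 lower and 286 higher of all genes, where 1902 and 1842 had been called. The cause was not tested, beyond the minimum itself removing smaller changes.

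Numbers 2, 3 and 5 occur in both groups. Deviations from the group means correlated at -0.06, 0.16 and 0.06 for same-numbered libraries, and not every library correlated best with its own number. The replicate block on these numbers gave 11 lower and 4 higher members, where 12.3% and 12.1% of all genes were. It put Sulf1 at 0.0073 (log2). Fam20b (edgeR adjusted p = 0.167), Ext1 (0.0605) and Chst14 (0.0503) were not called in it. The same 6 libraries without a block gave 10 and 4 (without these 3 and Chst12), with Sulf1 at 0.0085, 7 higher genes in the further lists, and 1239 lower and 1289 higher of all genes.

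Signs turned only in members that had not passed the test (log2 values follow). Upper-quartile scaling put Extl3 at -0.0015 and Csgalnact2 at -0.016. The offset put Sulf1 at 0.0050, Hs6st1 at 0.031 and Chpf2 at 0.042. With libraries left out, Sulf1 ran from -0.026 to 0.020, Hs6st1 from -0.054 to 0.013, Chpf from -0.21 to 0.023, Chpf2 from -0.054 to 0.058, Csgalnact2 from -0.028 to 0.030, Ust from -0.0033 to 0.053, Extl3 from -0.0048 to 0.072 and Chst3 from -0.50 to 0.051. Counts of 44 to 99 behind Hs3st1 and lower ones behind Chst3 limit their precision.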
